A study of Mus musculus with 12 samples.

Results

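The GIMAP genes encode GTPases of immunity-associated proteins, and they were followed here as a family of 8 (Gimap1, Gimap3, Gimap4, Gimap5, Gimap6, Gimap7, Gimap8 and Gimap9) among 18193 measured genes. They were chosen by symbol, as every probe set of the array that maps to exactly 1 of the 8 names, which gave 11 of 45037 probe sets. Each gene was described by its brightest probe set, averaged over the 12 arrays, and the 3 others (of Gimap4, Gimap6 and Gimap7) served as a check. Lymph node cells came from P14-TCR mice, which carry a transgenic T cell receptor for the viral peptide gp33-41, so that this receptor was common to all groups. Of the 6 mice, 3 were wild type and 3 were PKD2 null, that is without protein kinase D2, a kinase activated by the antigen receptor. Each mouse gave 1 array of cells cultured 4 h with the peptide at 62.5 ng/ml and 1 of cells cultured 4 h without it. The 4 groups therefore held 3 arrays each. The labels name no sort of the cells, and give neither the age nor the sex of the mice.

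GIMAP proteins are GTPases related to septins and dynamins, found mainly in lymphocytes, and their genes lie side by side in mammalian genomes. They are best known for keeping resting T and B cells alive: animals without Gimap5 or Gimap1 lose mature lymphocytes, and the lyp defect of the diabetes-prone BB rat lies in Gimap5. Other members act in lymphocyte death (Gimap4) and in autophagy (Gimap6).

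The family did not respond to antigen as a block. In wild-type cells 5 of 8 genes fell with peptide (Gimap1, Gimap3, Gimap6, Gimap7 and Gimap8), 2 rose (Gimap4 and Gimap5) and Gimap9 did not pass. In PKD2-null cells 5 fell (Gimap1, Gimap3, Gimap6, Gimap8 and Gimap9), Gimap5 rose, and Gimap4 and Gimap7 did not pass. By the brightest probe sets the changes lay between -0.66 and 0.60 on the log2 scale in wild type and between -0.59 and 0.66 in null cells. The dimmer probe sets of Gimap7 and Gimap6 gave -0.88 and -0.79 in wild type. No GIMAP gene passed between the genotypes. A gene passed, here and below, when its two-sided limma p, from 1 fit of the 4 groups and adjusted by the Benjamini-Hochberg method across 45037 probe sets, was under 0.05.

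The values with and without peptide did not overlap for 8 of 8 genes in wild type, against 46.7% of all genes, and for 7 of 8 in null cells, against 41.5%. Those shares also take in genes dimmer than any GIMAP gene, and the share among brighter genes alone is not given here. These counts sit in a response that took in much of the array. With peptide, 35.5% of all genes passed in wild type (15.1% up and 20.4% down) and 31.5% in null cells (12.5% up and 19.0% down). Among the 10328 genes with a mean signal of at least 5, which include all 8 GIMAP genes, the shares were 58.5% (24.3% up and 34.3% down) and 52.4% (20.8% up and 31.6% down). The median peptide effect of the 8 genes was -0.39 in wild type and -0.37 in null cells, against medians of -0.069 and -0.086 over those 10328 genes. Their median size, sign apart, was 0.48 and 0.41, against 0.44 and 0.37. The 8 genes thus moved about as far as a typical expressed gene. Between 35.4% (Gimap7) and 63.1% (Gimap9) of expressed genes changed more in wild type.

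The genes lie next to each other on mouse chromosome 6, in the order Gimap8, Gimap9, Gimap4, Gimap6, Gimap7, Gimap1, Gimap5 and Gimap3, with Gimap6 and Gimap3 on the minus strand and the others on the plus strand (RefSeq, GRCm38.p6). The upstream sequences of 4 members are shown because they set the genes that rose beside close neighbours that fell: Gimap5 and its immediate neighbour Gimap1, then Gimap4 and its immediate neighbour Gimap6. Each runs 5′ to 3′ over the 250 bases before the annotated start. Capitals mark matches, on either strand, to short motifs of lymphocyte factors.
Gimap5, chr6:48745947-48746196, + strand: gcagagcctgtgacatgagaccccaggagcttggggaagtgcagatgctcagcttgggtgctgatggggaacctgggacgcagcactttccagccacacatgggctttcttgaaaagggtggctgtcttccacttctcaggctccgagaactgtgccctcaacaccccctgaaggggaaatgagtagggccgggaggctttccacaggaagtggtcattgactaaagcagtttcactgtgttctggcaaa
Gimap1, chr6:48738797-48739046, + strand: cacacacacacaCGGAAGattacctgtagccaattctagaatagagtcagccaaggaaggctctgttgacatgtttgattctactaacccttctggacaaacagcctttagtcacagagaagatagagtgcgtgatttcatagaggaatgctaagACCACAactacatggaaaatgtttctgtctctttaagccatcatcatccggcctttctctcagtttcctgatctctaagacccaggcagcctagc
Gimap4, chr6:48684328-48684577, + strand: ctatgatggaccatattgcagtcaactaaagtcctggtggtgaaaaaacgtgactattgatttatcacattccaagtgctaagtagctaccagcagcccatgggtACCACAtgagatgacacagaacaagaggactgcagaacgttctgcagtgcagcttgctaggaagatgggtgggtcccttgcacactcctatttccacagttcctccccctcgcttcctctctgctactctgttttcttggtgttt
Gimap6, chr6:48708245-48708494, - strand: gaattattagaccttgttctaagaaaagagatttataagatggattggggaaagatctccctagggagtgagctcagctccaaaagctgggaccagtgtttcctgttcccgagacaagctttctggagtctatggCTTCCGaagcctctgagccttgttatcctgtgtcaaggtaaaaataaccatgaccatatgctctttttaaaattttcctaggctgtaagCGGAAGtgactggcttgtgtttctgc

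The motifs searched were CGGAAG (ETS), TGTGGT (RUNX), TGTTTAC (forkhead), CTTTGA (TCF/LEF), TGANTCA (AP-1) and CACGTG (E-box). ETS letters stood upstream of 3 of the 8 genes (Gimap1, Gimap6 and Gimap8) and in 13.6% of 32851 mouse windows of this length. RUNX letters stood upstream of 3 (Gimap1, Gimap4 and Gimap7) and in 14.0% of windows, and forkhead letters upstream of Gimap3 alone and in 3.17% of windows. TCF/LEF, AP-1 and E-box letters stood in 0 of the 8 and in 13.8%, 6.75% and 6.02% of windows. In the sequences above, Gimap1 holds 1 ETS and 1 RUNX match, Gimap4 1 RUNX match, Gimap6 2 ETS matches and Gimap5 0, and no matches overlap. Gimap8 has 2 annotated starts, and the ETS letters lie upstream of 1 of them. A match is a run of letters and not a measured binding site.

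**Figure D1:**
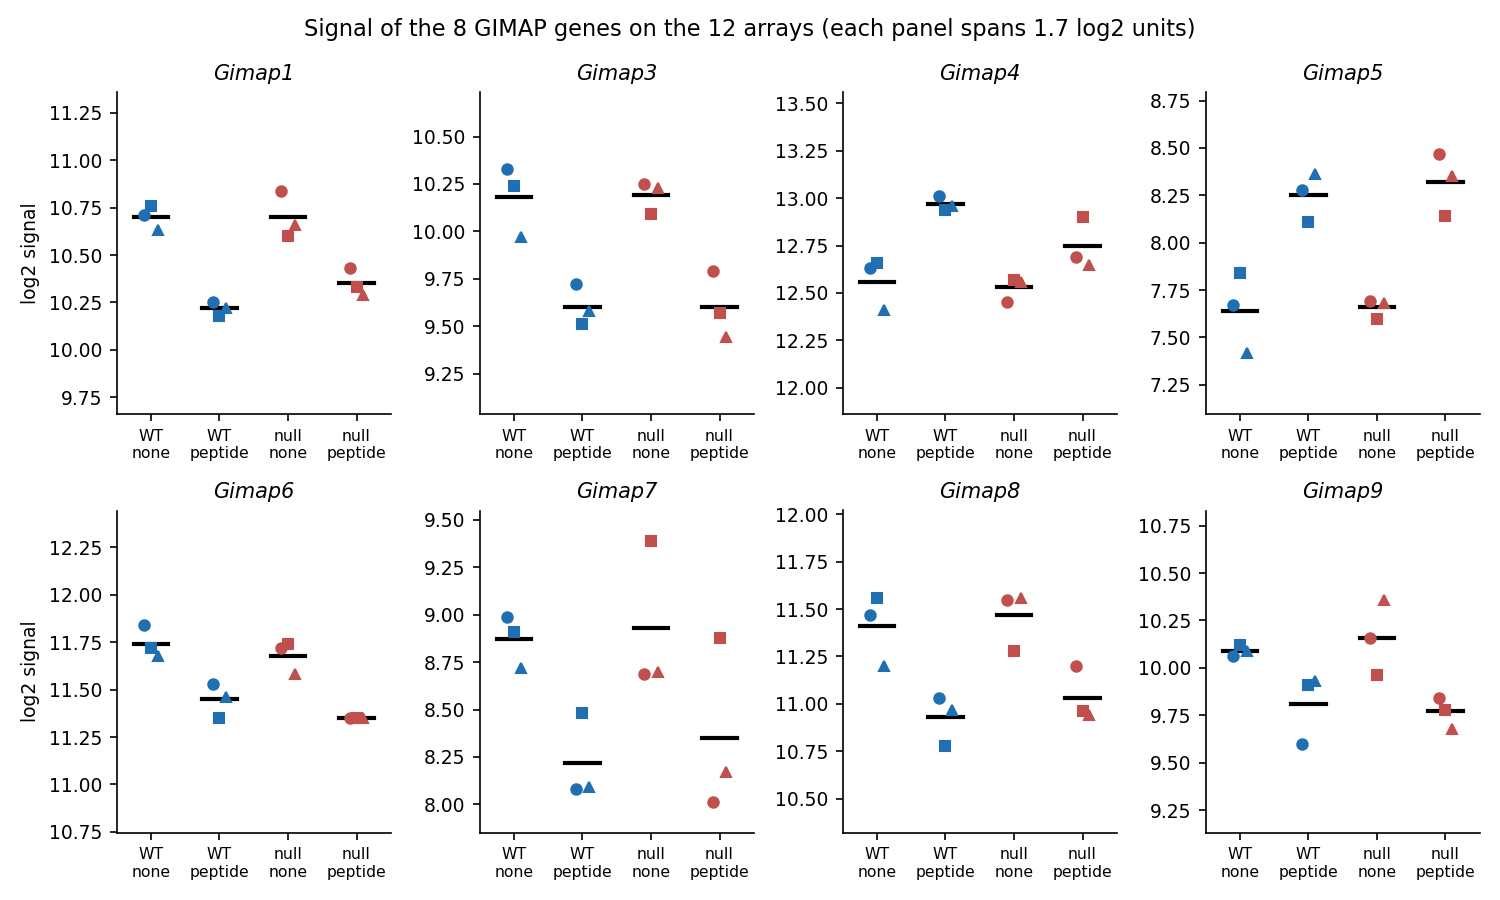
Log2 signal of each GIMAP gene on the 12 arrays, in wild-type (WT, blue) and PKD2-null (red) cells without (none) or with peptide; circles, squares and triangles are mice 1, 2 and 3 and bars are means of 3. Gimap4 and Gimap5 sit higher with peptide in both genotypes, the other 6 sit lower, and the wild-type groups do not overlap for any of the 8.

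Gimap5, a member whose loss leaves animals short of mature lymphocytes, rose in both genotypes. In wild-type mice 1, 2 and 3 its signal was 7.67, 7.84 and 7.42 without peptide and 8.28, 8.11 and 8.36 with it. In null mice it was 7.69, 7.60 and 7.68 without and 8.47, 8.14 and 8.35 with peptide. Every array with peptide lay above every array without it, in both genotypes. The rise was 0.60 (SE 0.119, 1.52-fold, adjusted p = 0.00157) in wild type and 0.66 (SE 0.119, 1.58-fold, adjusted p = 0.001) in null cells, and was seen in 3 of 3 mice each. Wild-type mouse 2 rose least, by 0.27, against 0.61 and 0.94 in mice 1 and 3. Gimap5 has 1 probe set that maps to it alone, so no second measurement of it was at hand. Probe sets with several gene symbols were not read for it.

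Gimap4, reported to speed the death of T cells that have entered apoptosis, rose in wild-type cells. Its signal there was 12.63, 12.66 and 12.41 without peptide and 13.01, 12.94 and 12.96 with it. In null mice the signal was 12.45, 12.57 and 12.56 without and 12.69, 12.90 and 12.65 with peptide, so that the groups did not overlap in either genotype. The wild-type rise was 0.40 (SE 0.0947, 1.32-fold, adjusted p = 0.00516), and without wild-type mouse 3 it was 0.33 with an adjusted p of 0.0521. The null change was 0.22 (SE 0.0947, 95% interval 0.014 to 0.43) and did not pass (adjusted p = 0.124), with 0.25, 0.33 and 0.085 in the 3 mice. It passed with a variance prior that follows the signal (adjusted p = 0.0432). This brighter probe set is of a class that can bind more than 1 transcript. The dimmer probe set of the gene gave 0.56 in wild type (adjusted p = 0.000961) and 0.21 in null cells (adjusted p = 0.189).

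Gimap3, a close paralog of Gimap5 that lies next to it, fell in both genotypes by nearly the amount that Gimap5 rose. Its signal was 10.33, 10.24 and 9.97 without and 9.72, 9.51 and 9.58 with peptide in wild type. The null mice gave 10.25, 10.09 and 10.23 without and 9.79, 9.57 and 9.44 with peptide. The values with peptide lay below those without in each genotype. The fall was -0.58 (SE 0.117, 1.49-fold, adjusted p = 0.00188) in wild type and -0.59 (SE 0.117, 1.5-fold, adjusted p = 0.00204) in null cells, and it passed in each fit that left out 1 mouse. The extent to which probes of the paralogs bind each other's transcripts was not tested.

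Gimap1, which mature T and B cells need to persist, fell as well. It went from 10.71, 10.76 and 10.63 to 10.25, 10.18 and 10.22 in wild-type mice 1, 2 and 3. The null mice went from 10.84, 10.60 and 10.66 to 10.43, 10.33 and 10.29. The groups lay apart in both genotypes, and the spread within them was among the smallest of the family (pooled SD 0.0815). The fall was -0.49 (SE 0.0845, 1.40-fold, adjusted p = 0.000601) in wild type and -0.35 (SE 0.0845, 1.27-fold, adjusted p = 0.00754) in null cells. Without null mouse 3 the latter was -0.34 with an adjusted p of 0.0581.

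Gimap8, a large member with several GTP-binding domains in 1 chain, fell too. Its signal was 11.47, 11.56 and 11.20 without and 11.03, 10.78 and 10.97 with peptide in wild type. The null values were 11.55, 11.28 and 11.56 without and 11.20, 10.96 and 10.94 with peptide, and the groups lay apart in each genotype. The fall was -0.48 (SE 0.121, adjusted p = 0.00793) in wild type and -0.44 (SE 0.121, adjusted p = 0.0177) in null cells. It was -0.34 without wild-type mouse 2 (adjusted p = 0.127) and -0.34 without null mouse 3 (adjusted p = 0.188).

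**Figure D2:**
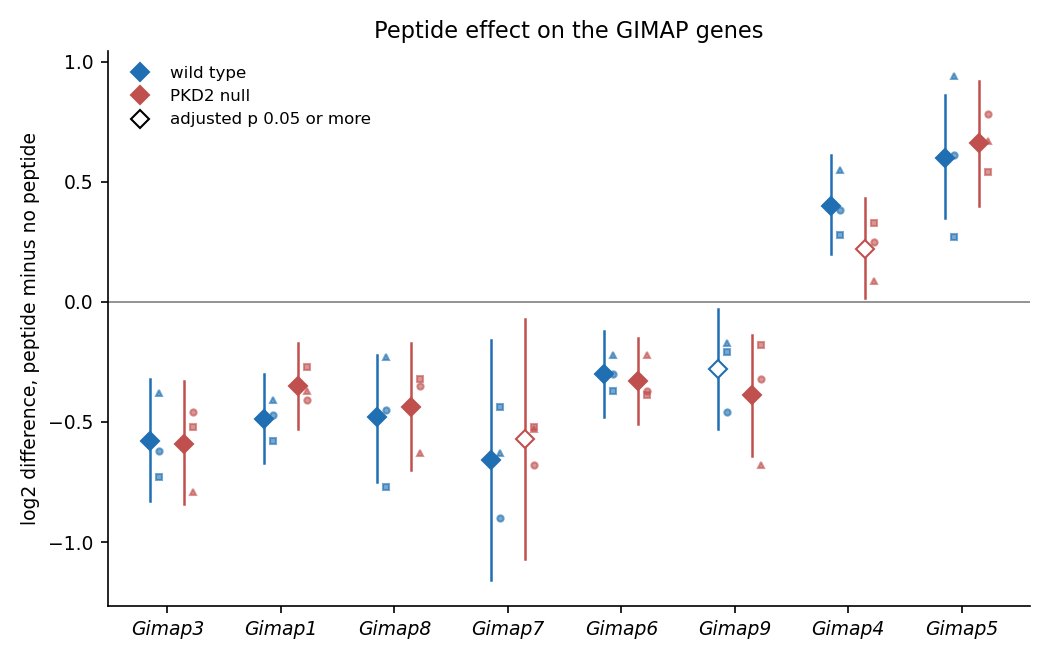
Peptide effect on each GIMAP gene (log2 difference, peptide minus no peptide) in wild-type (blue) and PKD2-null (red) cells; diamonds are the fit with its 95% interval, open where the adjusted p is 0.05 or more, and small marks are mice 1 (circle), 2 (square) and 3 (triangle). Gimap4 and Gimap5 lie above 0 and the other 6 below it in every mouse.

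Gimap6, which binds an ATG8 protein and takes part in autophagy, had the smallest fall that passed in either genotype. Its signal was 11.84, 11.72 and 11.68 without and 11.53, 11.35 and 11.46 with peptide in wild type. Among null mice it was 11.72, 11.74 and 11.58 without peptide and 11.35 in all 3 with it. The groups lay apart, and the falls were -0.30 (SE 0.0823, adjusted p = 0.0142) and -0.33 (SE 0.0823, adjusted p = 0.00957). In wild type the adjusted p was 0.0571 without mouse 1 and 0.0995 without mouse 2. In null cells it was 0.0789 without mouse 1 and 0.0763 without mouse 2.

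Gimap9 passed in null cells and not in wild type. Its signal was 10.06, 10.12 and 10.09 without and 9.60, 9.91 and 9.93 with peptide in wild type, a change of -0.28 (SE 0.115) that did not pass (adjusted p = 0.0956). In null mice it went from 10.16, 9.96 and 10.36 to 9.84, 9.78 and 9.68, a fall of -0.39 (SE 0.115, adjusted p = 0.0236). The groups did not overlap in either genotype. The null fall did not pass without mouse 1 (-0.43, adjusted p = 0.0822) or mouse 3 (-0.25, adjusted p = 0.261), and after quantile normalization the wild-type change passed (-0.36, adjusted p = 0.0291). The difference of the effects between genotypes did not pass (-0.11, 95% interval -0.47 to 0.24, adjusted p = 0.934). That interval takes in differences as large as the wild-type change itself.

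Gimap7, a GTPase that can pair with other family members, varied most between mice (pooled SD 0.334 within groups). In wild type it went from 8.99, 8.91 and 8.72 to 8.08, 8.48 and 8.09, a fall of -0.66 (SE 0.23, adjusted p = 0.0497). In null mice it went from 8.69, 9.39 and 8.70 to 8.01, 8.88 and 8.17, a change of -0.57 (SE 0.23) that did not pass (adjusted p = 0.0974). Null mouse 2 was the highest of all mice in both conditions, so that the null groups overlapped, although each mouse went down by 0.52 to 0.68. With the mouse as a block the null fall passed (adjusted p = 0.0399 as a random and 0.00183 as a fixed block), as it did without null mouse 2 (-0.60, adjusted p = 0.0125). The wild-type call was lost without any 1 of the wild-type mice (adjusted p = 0.27, 0.0959 and 0.151 without mice 1, 2 and 3), without null mouse 3 (adjusted p = 0.0651) and after quantile normalization (adjusted p = 0.0689).

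Both lymphocyte classes were present in the cultures, and null mouse 2 stood apart in their markers. The mean of 7 B cell markers was 9.45, 10.04 and 9.41 in null mice without and 8.74, 9.30 and 8.69 with peptide. In wild type it was 8.93, 9.06 and 8.94 without and 8.01, 8.33 and 8.11 with peptide, below the null mice in each condition. Between genotypes 0 of the 7 B cell markers passed without peptide, and Cd79b and Fcrla alone passed with it. Of all genes, 0.044% and 1.64% passed in these comparisons. The mean of 5 T cell markers was lowest in the same null mouse 2, at 11.15 without and 10.69 with peptide, against 11.50 and 11.59, and 11.15 and 11.14, in null mice 1 and 3. The GIMAP genes did not all order the null mice alike. Without peptide, mouse 2 was the lowest for Gimap1, Gimap3, Gimap5, Gimap8 and Gimap9. It was the highest for Gimap4, Gimap6 and Gimap7. With peptide it was the highest for Gimap4 and Gimap7, the lowest for Gimap5, and in between for Gimap1, Gimap3, Gimap8 and Gimap9. GIMAP genes are used by both T and B cells, and the balance between them was not measured for any member. In bulk RNA fewer cells of a type and less RNA per cell cannot be told apart. With peptide 6 of 7 B cell markers fell in wild type and 5 in null cells, and 3 and 2 of 5 T cell markers fell. The part of these shifts in the GIMAP values was not tested.

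**Figure D3:**
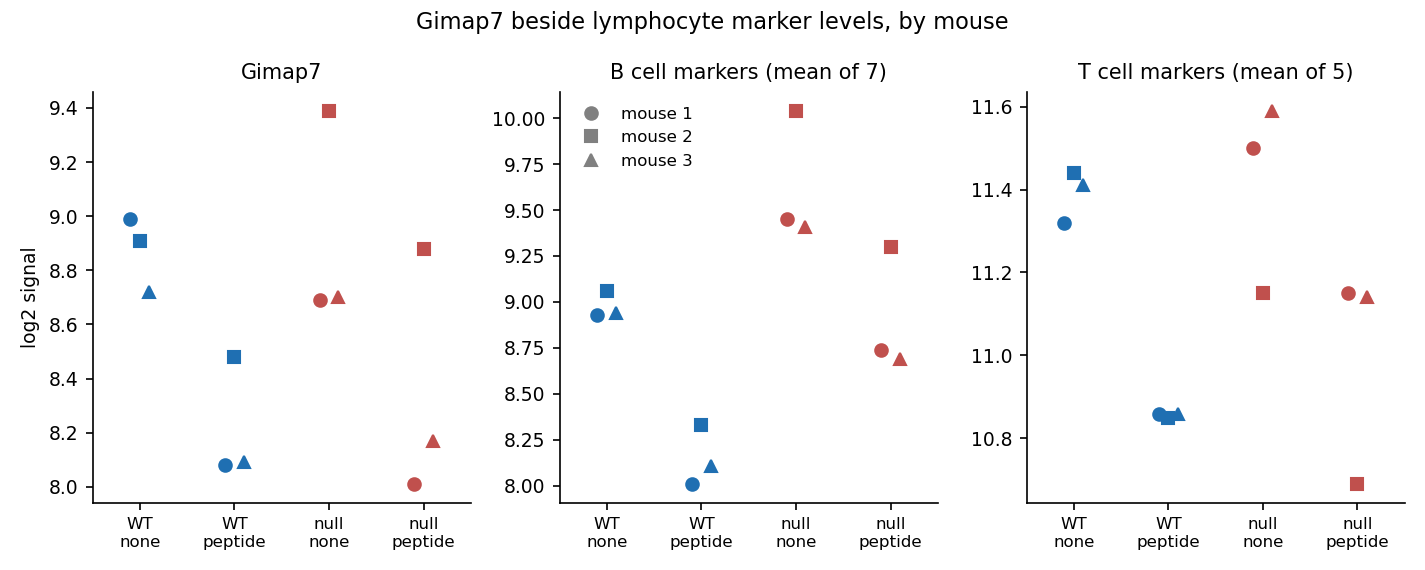
Log2 signal of Gimap7 (left) beside the mean of 7 B cell markers (middle) and of 5 T cell markers (right) in the 4 groups; each mark is 1 array, with circles, squares and triangles for mice 1, 2 and 3 of a genotype. Null mouse 2 is the highest null mouse for Gimap7 and for the B cell markers, and the lowest for the T cell markers, in both conditions.

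Markers of other cell types were also read. The mean of 8 endothelial and stromal markers, a class that also uses GIMAP genes, lay between 4.57 and 4.79 on all arrays. Of those 8, 6 had group means under 5, including the endothelial genes Cdh5, Tek and Lyve1. The endothelial gene Kdr had group means of 5.38 to 5.71. Pecam1, which leukocytes also express, went from 8.77 to 7.28 in wild type and from 8.99 to 7.47 in null cells with peptide. The mean of 3 NK cell markers lay between 3.97 and 4.71. The mean of 8 myeloid and dendritic cell markers lay between 5.88 and 6.68, and it was highest among null mice in mouse 2 (6.68 without and 6.38 with peptide). Within that list the lysozyme gene Lyz2, of macrophages and neutrophils, was clearly present, with group means of 9.39 to 10.18, whereas Itgam and Xcr1 had group means under 5. The part of these cells in the GIMAP values was not tested. As a check of RNA integrity, the 3′ minus 5′ signal of the actin controls ran from 0.214 to 0.355 on arrays without and from 0.179 to 0.238 on arrays with peptide.

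The brighter and dimmer probe sets gave the same direction in wild type for the 3 genes that have a pair of them. For Gimap7 the dimmer probe set fell by -0.88 (SE 0.245, adjusted p = 0.015) in wild type and gave -0.46 in null cells (adjusted p = 0.232). For Gimap6 the probe sets parted. The dimmer one read 11.00, 10.71 and 10.30 without and 10.38, 9.62 and 9.66 with peptide in wild type, a fall of -0.79 (SE 0.208, adjusted p = 0.0109) between groups that overlapped. The null mice read 10.58, 10.65 and 10.68 without and 10.73, 10.31 and 10.66 with peptide, a change of -0.07 (SE 0.208, adjusted p = 0.881), with mouse 1 going up. The difference of these effects was 0.72 (95% interval 0.08 to 1.36, limma adjusted p = 0.66), and for the brighter probe set it was -0.03 (95% interval -0.28 to 0.22). The mean of both Gimap6 probe sets did not pass in null cells (-0.20, adjusted p = 0.306).

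**Figure D4:**
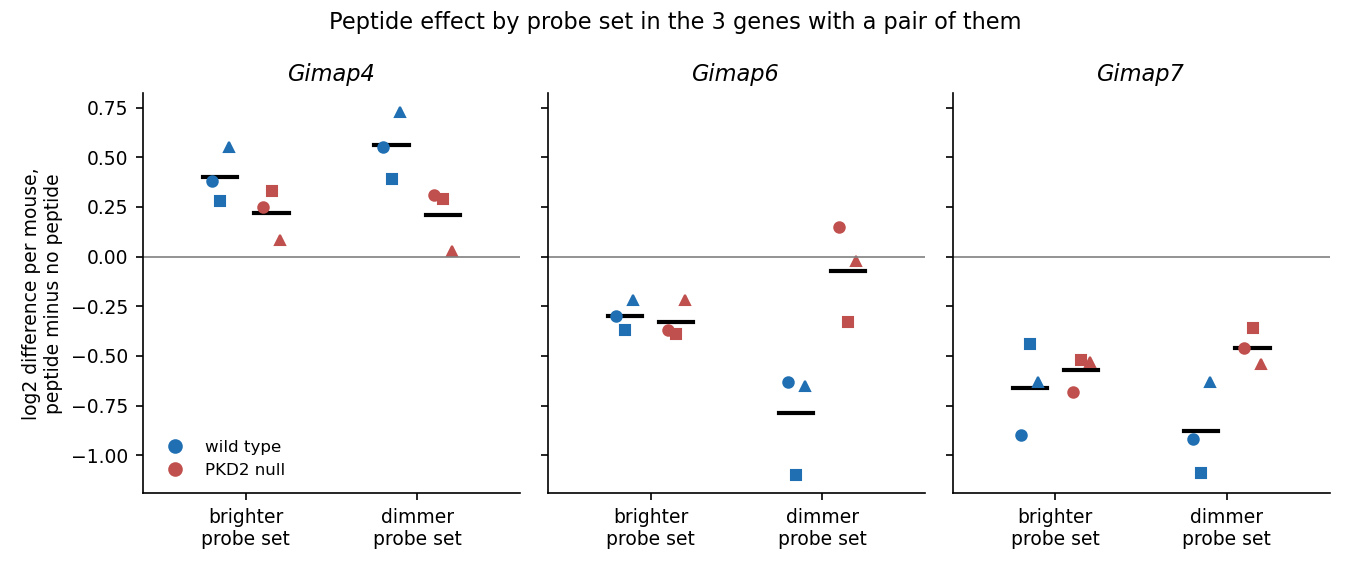
Peptide effect in each mouse (log2 difference, peptide minus no peptide) for the brighter and the dimmer probe set of Gimap4, Gimap6 and Gimap7, in wild-type (blue) and PKD2-null (red) mice; circles, squares and triangles are mice 1, 2 and 3, and bars are the means. The dimmer Gimap6 probe set falls in the 3 wild-type mice and scatters about 0 in the null mice, whereas the brighter one lies below 0 in all 6.

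The next question was whether loss of PKD2 alters the family. The genotype check held on all arrays: Prkd2, which encodes PKD2, read 9.99 to 10.34 in wild type and 5.80 to 6.33 in null cells without peptide, and 8.16 to 8.52 against 5.36 to 5.60 with it. Without peptide 0 of 8 GIMAP genes passed in limma, and 0.044% of all genes did. At an unadjusted p under 0.05 there were also 0 of 8, against 10.6% of all genes. The differences, null minus wild type, lay between -0.063 (Gimap6) and 0.07 (Gimap9), and the groups overlapped for all 8, while they did not for 16.4% of all genes. Intervals were widest for Gimap7 (-0.45 to 0.56) and narrow for Gimap1 (-0.19 to 0.18) and Gimap6 (-0.24 to 0.12). Differences beyond these bounds lie outside the 95% intervals, and smaller ones could not be told from 0. These levels came with B cell markers whose mean of 7 read higher in the null mice, at 9.41 to 10.04 against 8.93 to 9.06. In this comparison 0 of the 7 markers passed.

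With peptide, 0 of 8 passed again, while 1.64% of all genes did. At an unadjusted p under 0.05 there was 1 of 8, against 17.6% of all genes. That gene was Gimap4, whose stimulated null values (12.65 to 12.90) lay below the wild-type values (12.94 to 13.01), a difference of -0.22 (SE 0.0947, adjusted p = 0.282). Its dimmer probe set also lay lower, at 11.41 to 11.76 against 11.85 to 11.99 (-0.35, SE 0.103, adjusted p = 0.137). Gimap1 was the other gene without overlap, at 10.29 to 10.43 in null and 10.18 to 10.25 in wild type (0.13, adjusted p = 0.495), while 23.8% of all genes had groups without overlap in this comparison. The other 6 differences lay between -0.093 and 0.14. The dimmer probe sets of Gimap6 and Gimap7 lay higher in null cells, by 0.68 (95% interval 0.23 to 1.14, adjusted p = 0.147) and 0.51 (95% interval -0.027 to 1.04, adjusted p = 0.346), with groups that overlapped. Counted by probe set, 3 of 11 had an unadjusted p under 0.05 in this comparison, both of Gimap4 and the dimmer one of Gimap6. No difference of the peptide effects passed in limma for the family (0 of 8, with 0.0055% of all genes called). At an unadjusted p under 0.05 there were 0 of 8 genes, against 7.71% of all genes, and 2 of 11 GIMAP probe sets, the dimmer ones of Gimap4 and Gimap6. By the brighter probe sets the largest was -0.18 for Gimap4 (95% interval -0.48 to 0.11, adjusted p = 0.824). The dimmer Gimap4 probe set gave -0.35 (95% interval -0.66 to -0.032, adjusted p = 0.667), and the dimmer Gimap6 one was given above. By the brighter sets, the intervals for Gimap3 and Gimap5 were -0.37 to 0.35 and -0.31 to 0.43.

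The order of the 4 group means followed the peptide. For the 6 genes with lower means under peptide, both means without peptide lay above both means with it, and for Gimap4 and Gimap5 both lay below. The genotypes under the same treatment, such as 10.18 and 10.19 for Gimap3 in wild-type and null cells without peptide, had overlapping values except for Gimap1 and Gimap4 with peptide.

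Among themselves the members fell into profiles of unequal likeness. Likeness was taken as the root mean square difference between the 12 values of each gene, centred on its own mean. Gimap1 and Gimap8 were closest (0.0908), followed by Gimap3 and Gimap8 (0.093). The nearest member to Gimap5 was Gimap4 (0.238), and Gimap5 was farthest from Gimap7 (0.717) and Gimap3 (0.617). Gimap7 lay at least 0.324 from every other member. Because members went both ways, the mean profile of the 8 spanned only -0.19 to 0.18 on the 12 arrays, lower with peptide in each mouse. Of all other genes, those nearest to that mean were Tmem128 (0.0577), Jtb (0.0591), Smchd1 (0.0602), Pdcd10 (0.0609) and B4galt3 (0.063), then Cdc26, Cdk9, Atp5h, Slc25a38 and Cops9 (0.0646 to 0.0658). In wild type their peptide differences were -0.14 to -0.31, and Atp5h and Cops9 passed. In null cells Smchd1, Pdcd10, B4galt3, Slc25a38 and Cops9 passed. Several members lay far from that mean themselves: 84.9% of other genes were closer to it than Gimap5, 76.1% than Gimap7 and 69.2% than Gimap4. For Gimap6, the nearest member, the share was 1.13%.

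Of 12 measured neighbours of the cluster, 6 on each side, 1 passed in wild-type cells (35.5% of all genes did) and 4 in null cells (31.5% of all genes). Most were dimmer than the GIMAP genes: their mean signals ran from 3.60 (Atp6v0e2) to 9.10 (Malsu1), against 7.97 to 12.70 for the members. The wild-type call was the zinc finger gene Zfp775 at -0.88 (SE 0.183, adjusted p = 0.0022), and it fell likewise in null cells (-0.90). In null cells Lrrc61 also fell (-0.34, adjusted p = 0.0294), and Rarres2, which encodes the chemoattractant chemerin, and the amine oxidase gene Aoc1 rose by 0.55 and 0.53. Rarres2 and Aoc1 were dim, with mean signals of 5.30 and 4.27. Tmem176b and Tmem176a, the nearest measured genes beyond Gimap3, read -0.054 and 0.00016 in wild type and -0.45 and -0.30 in null cells, with no call.

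**Figure D5:**
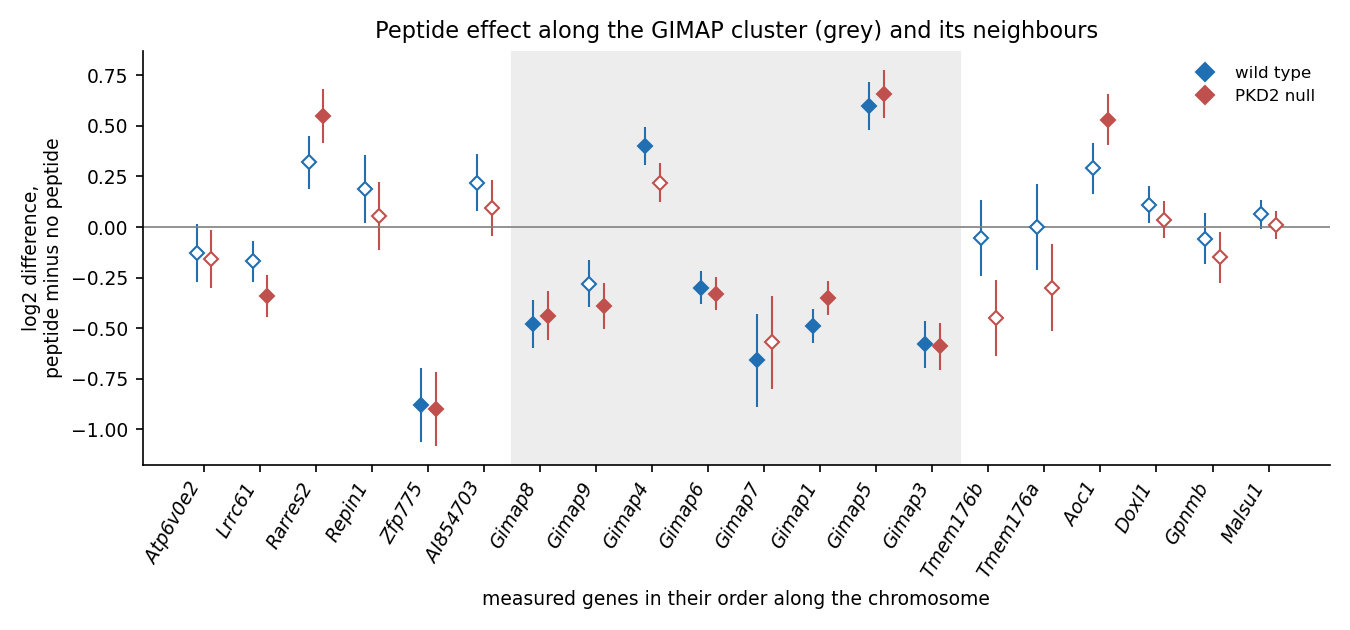
Peptide effect (log2 difference, peptide minus no peptide, with the SE of the fit) for the 8 GIMAP genes (grey band) and 6 measured genes on each side, in their order along chromosome 6; filled diamonds passed at an adjusted p under 0.05, in wild-type (blue) and PKD2-null (red) cells. Within the band Gimap4 and Gimap5 stand above 0 between neighbours that lie below it.

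Genes of the naive lymphocyte state went down with peptide. Of 12 measured, 11 fell and 0 rose in each genotype, with a median of -1.54 in both. Among genes with a mean signal of at least 5, 34.3% fell in wild type and 31.6% in null cells. In wild type the transcription factor gene Klf3 changed by -2.82, the egress receptor gene S1pr1 by -2.81, the IL-7 receptor gene Il7r by -2.41 and Klf2, whose product drives S1pr1, by -2.37. Btg1 was the gene that did not pass. Between genotypes with peptide, S1pr1 (0.67, adjusted p = 0.0463) and the transcription factor gene Bach2 (0.43, adjusted p = 0.0478) were higher in null cells. In that comparison 1.64% of all genes passed. By the brighter probe sets the largest GIMAP fall was -0.66, for Gimap7 in wild type. The dimmer probe sets of Gimap7 and Gimap6 fell by -0.88 and -0.79 there.

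Genes for proteins that have been linked to GIMAP function split as well. These were BCL2 family members, the kinase gene Gsk3b and ATG8 genes, of which 11 were measured, and 3 rose and 6 fell in wild-type cells. The null cells gave 2 and 6. Among genes with a mean signal of at least 5, 24.3% rose and 34.3% fell in wild type. In null cells these shares were 20.8% and 31.6%. The survival genes Bcl2l1 and Bcl2 rose by 2.03 and 1.65 in wild type and by 1.55 and 1.84 in null cells. The death gene Bcl2l11, which encodes BIM, changed by -0.95 and -0.54, Gsk3b by -1.47 and -0.90, and Map1lc3b, an ATG8 gene of the autophagy machinery, by -0.78 and -0.72, and all these falls passed. Between genotypes with peptide, Gsk3b was higher (0.58, adjusted p = 0.0471) and Gabarapl1 lower (-0.67, adjusted p = 0.048) in null cells, and the other 9 did not pass. In that comparison 1.64% of all genes passed.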

How the data were processed

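Lymph node RNA of 6 mice, 3 per genotype and each with and without peptide, was measured on 12 Affymetrix arrays. The log2 signals were used as deposited by the authors, who used Affymetrix Expression Console 1.1 per the submitters' processing notes. How they summarised and normalized the probes is unstated in these sources. Array medians lay between 4.665 and 4.724. With 3 arrays a group, precision is limited by their number.

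Of 45101 probe sets, 64 controls were left out. Gene names came from the platform annotation: 34945 probe sets had 1 symbol, 932 several and 9160 none. A gene was represented by its brightest probe set. One model of the 4 group means was fitted in R 4.3.3 using limma 3.58.1 (lmFit, contrasts, eBayes; 8 residual and 4.18 prior degrees of freedom), with Benjamini-Hochberg adjustment over 45037 probe sets and calls at an adjusted p under 0.05. The script was tested on simulated data. Labels give an animal number that joins each mouse's arrays, so the mouse pairs the samples. Same-mouse deviations correlated at 0.116 to 0.577, against -0.399 to 0.129 for different mice of a genotype. The main fit did not use this pairing. The mouse as a block, normalization, scaling, a filter on dim probe sets, the probe set rule, a variance trend, the arrays fitted and leaving out each mouse were tried as alternatives.

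The text names all 8 members, Prkd2, 6 measured neighbours on each side, the 10 genes nearest to the members' mean profile and, from each gene list, up to 4 called genes with the largest change per comparison. The members and lists were chosen with earlier results of these data known. Some genes of the lists are not reported here. Promoter sequences are from RefSeq (GRCm38.p6).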

Additional observations from a re-analysis of the deposited data

How the results depend on the processing

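Over 15 alternatives for each peptide effect, no GIMAP gene changed direction. Gimap3 and Gimap5 in both genotypes and Gimap1 in wild type passed in all 15. The count of GIMAP genes called ran from 4 to 7 in wild type when a mouse was left out (4 without wild-type mouse 2) and was 7 under the 9 other settings. In null cells it ran from 3 to 6 when a mouse was left out (3 without null mouse 3) and from 5 to 7 otherwise. Fewer samples enter those fits. With the mouse as a replicate block, 7 genes were called in wild type and 7 in null cells, where Gimap7 was the call gained. The genotype comparisons and the difference of effects kept 0 called genes in 14 alternatives each. Over the whole table, averaging a gene's probe sets, which tests fewer features, gave 6468 calls in wild type (13078 as reported, 9333 to 14648 over the other alternatives) and 5733 in null cells (11170 as reported, 7820 to 12885). Between genotypes, calls over all probe sets were 17 without peptide (3 to 64 over the alternatives), 531 with it (69 to 1150), and 1 for the difference of effects (0 to 43). The precision rests on 3 arrays a group, and Gimap7, the most variable member, was the call most often lost.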
